A study of Drosophila melanogaster with 2 samples.

Results

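Of 39 Polycomb, Trithorax and chromatin remodeler genes of Drosophila melanogaster, 22 carried a Snail-eGFP peak at their own transcription start site in whole embryos. The 39 genes were taken by name from a list of 18 Polycomb genes and 21 Trithorax and remodeler genes and were matched to the dm6 gene models. All 39 were found among the 13945 coding genes of the 6 main chromosome arms, 1 of them (calypso) by an older symbol. A gene was counted as having its own peak when the summit of a peak in the list called from the pooled replicates lay within 500 bp of any of its annotated start sites. Peaks farther off, up to 5000 bp from the ends of the gene, were counted apart, since a neighbouring gene may own them.

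Polycomb and Trithorax proteins keep developmental genes, the Hox genes above all, off or on through many cell divisions. Polycomb repressive complex 1 (PRC1) compacts chromatin and ubiquitylates histone H2A, PRC2 sets the repressive methyl mark on histone H3, and the Pho complex (PhoRC) brings them to DNA. Trithorax proteins of the COMPASS family set the methyl mark of active genes on the same histone, and the Brahma (BAP) and ISWI complexes move nucleosomes with the energy of ATP. Snail is a zinc-finger repressor of the early mesoderm and of neural precursors, and its core recognition sequence is CAGGTG.

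The series held 1 group, embryos aged 0 to 24 h of the strain sna-GFP, with 2 biological replicates and no second genotype, treatment or stage. The flies carry a transgene that makes Snail fused to eGFP, and the chromatin, sonicated to 200 to 800 bp, was precipitated with an antibody against GFP. Embryos were whole and of mixed age, so a peak may come from any tissue and stage within that span. The control experiment named in the labels was not analysed here: precipitation of the tagged protein and signal that any such precipitate would give at these start sites cannot be told apart. The pooled list held 4222 peaks that passed an IDR (irreproducible discovery rate) limit of 0.01, which asks whether a peak keeps its rank when the data are split or repeated, and 4221 of them lay on the main arms. The lists of the single replicates held 2876 peaks in replicate 1 and 2225 in replicate 2. Each kind of list had a longer companion of candidate regions, with 106694 in the pooled one. Read counts are in none of the files used, so the depth of the libraries is unknown. The scale of the authors' signal value was not given in the sources used here either.

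The sequences around 8 of the summits are given to show their motifs. Printed are the windows at the summits of the Polycomb genes Scm, Pc and Sfmbt and of the Trithorax and remodeler genes kis, polybromo, Utx and Caf1-55, which span strong and weak peaks. That of osa, whose region is described further on, was added after its values were seen. The summit is at or next to the middle base of each window except that of polybromo, which was shifted to hold fewer transcribed bases and has the summit at base 102. All are read 5′ to 3′ on the strand of the gene, from the Release 6 sequence, and capitals mark CGATA in either orientation, the core that the insulator protein BEAF-32 recognises. The windows lie at chr3R:9637598-9637718 on the minus strand for Scm, chr3L:21318007-21318127 on the minus strand for Pc and chr2L:13176520-13176640 on the minus strand for Sfmbt. Those of the other genes are chr2L:250875-250995 on the minus strand for kis, chr3R:24805239-24805359 on the minus strand for polybromo and chr2L:10277530-10277650 on the minus strand for Utx. For Caf1-55 the window is chr3R:15225426-15225546 on the plus strand, and for osa it is chr3R:17718353-17718473 on the minus strand.
Scm: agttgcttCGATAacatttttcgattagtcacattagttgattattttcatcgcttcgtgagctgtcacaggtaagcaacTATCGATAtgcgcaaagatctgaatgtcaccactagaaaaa
Pc: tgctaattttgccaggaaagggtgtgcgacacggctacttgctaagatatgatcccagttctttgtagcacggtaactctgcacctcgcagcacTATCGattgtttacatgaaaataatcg
Sfmbt: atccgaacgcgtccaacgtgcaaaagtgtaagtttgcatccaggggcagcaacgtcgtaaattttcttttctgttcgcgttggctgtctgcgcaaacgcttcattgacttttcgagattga
kis: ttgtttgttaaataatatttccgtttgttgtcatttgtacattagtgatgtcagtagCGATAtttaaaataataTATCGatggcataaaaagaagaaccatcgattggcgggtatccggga
polybromo: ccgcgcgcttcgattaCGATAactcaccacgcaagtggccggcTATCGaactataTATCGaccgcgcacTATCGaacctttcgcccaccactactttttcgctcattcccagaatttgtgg
Utx: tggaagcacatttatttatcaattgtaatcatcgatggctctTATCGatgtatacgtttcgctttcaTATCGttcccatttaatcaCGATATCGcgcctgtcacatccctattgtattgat
Caf1-55: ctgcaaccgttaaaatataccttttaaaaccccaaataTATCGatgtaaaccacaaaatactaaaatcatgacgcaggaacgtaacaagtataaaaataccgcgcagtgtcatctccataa
osa: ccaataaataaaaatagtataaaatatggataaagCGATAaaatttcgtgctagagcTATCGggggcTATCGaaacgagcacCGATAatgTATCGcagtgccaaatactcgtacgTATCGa
Overlapping copies counted, the window of osa held 6 copies of CGATA, those of polybromo and Utx 4 each, that of Scm 3, that of kis 2, those of Pc and Caf1-55 1 each and that of Sfmbt 0. None of the 8 windows held CAGGTG. These counts are of the printed windows, so that of polybromo is not centred as the others are. Over all 22 own peaks, CGATA lay within 100 bp of the summit in 68.2%, against 67.5% of all coding genes' own peaks.

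Peaks at the own start site were found for 8 of 18 Polycomb genes and 14 of 21 Trithorax and remodeler genes. The 22 genes make 56.4% of the 39 (95% Wilson interval 41.0 to 70.7), and over all coding genes the share was 27.5%. For Polycomb genes alone it was 44.4% (24.6 to 66.3), an interval that holds the share of all coding genes, and for Trithorax and remodeler genes it was 66.7% (45.4 to 82.8), an interval that lies above it. Polycomb minus Trithorax and remodeler genes gave −22.2 percentage points, with a 95% Newcombe interval of −47.8 to 8.28, so the 2 groups could not be told apart at this number of genes. Counting also the candidate regions that reach an IDR of 0.01 without being in the thresholded list, a rule chosen after seeing the data, gave 8 Polycomb and 16 Trithorax and remodeler genes, 24 in all, against 28.0% of all coding genes. The difference was then −31.7 points with an interval of −55.6 to −1.25, which excludes 0 by a small margin. These intervals cover counting error only, and no test was made, since the genes were chosen with results of these data known.

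**Figure D1:**
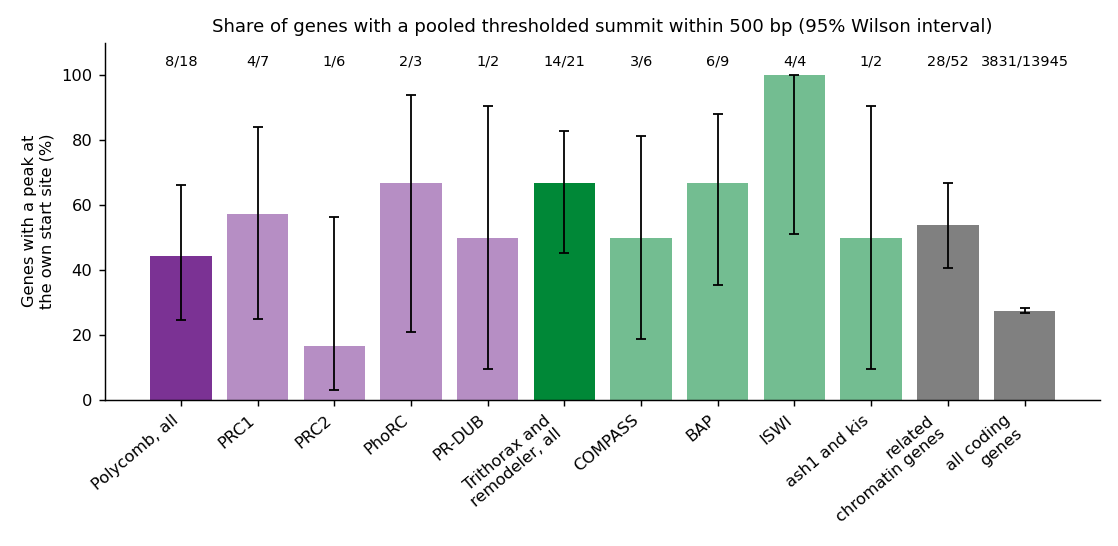
Share of genes with a pooled thresholded summit within 500 bp of an own start site (%), by complex, for Polycomb genes (purple), Trithorax and remodeler genes (green), the related chromatin genes and all coding genes (grey). Bars are shares, lines are 95% Wilson intervals and the counts stand above. ISWI stands at 4 of 4 genes and PRC2 at 1 of 6, with Caf1-55 counted in ISWI.

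The share of subunit genes with a peak ran from low in PRC2 to complete among the ISWI genes listed, though each complex holds few genes. Caf1-55, which belongs to PRC2 as well, was counted with ISWI. All 4 listed ISWI genes had a peak, as did 6 of 9 BAP genes, 3 of 6 COMPASS genes, and 1 of the 2 Trithorax genes of no listed complex. Among Polycomb genes a peak stood at 4 of 7 PRC1 genes, 2 of 3 PhoRC genes, 1 of 2 genes of the H2A deubiquitylase PR-DUB, and 1 of 6 PRC2 genes. The intervals of PRC2 (3.01 to 56.4%) and ISWI (51.0 to 100%) overlap between 51.0 and 56.4%. By arm, a peak was found at 3 of 5 genes on 2L, 6 of 9 on 2R, 5 of 9 on 3L, 5 of 9 on 3R and 3 of 6 on X, and at 0 of 1 on chromosome 4. Over all coding genes the share was 25.4% on 2L, 28.3% on 2R, 25.9% on 3L, 28.0% on 3R, 30.6% on X and 10% on chromosome 4.

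The strongest Polycomb peak was at Scm (sex comb on midleg), whose product links PRC1 and PhoRC. Its summit lay 47 bp upstream of the start site, at chr3R:9637485-9637805, with a signal of 369 in the pooled list, which placed it at rank 194. In the replicates' own lists its signal was 181 in replicate 1 and 187 in replicate 2. Next among PRC1 genes was Psc (Posterior sex combs), a partner of the ubiquitin ligase Sce, with a signal of 142 at 160 bp downstream of the start site (chr2R:12980576-12981091). Psc was in the list of replicate 1, at 75.5, and not in that of replicate 2. The other PRC1 genes with a peak were ph-p (polyhomeotic proximal), with 125 at 480 bp downstream of a start site, and Pc itself, which encodes the chromodomain reader of the mark that PRC2 sets, with 113 at 47 bp upstream. The peak of Pc was in the list of replicate 1 only, at 95.8, whereas that of ph-p was in both, at 84.7 in replicate 1 and 61.1 in replicate 2.

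Of the genes counted with PRC2, which leaves out Caf1-55, a peak was found at Su(z)12 alone. Su(z)12 encodes a core subunit needed for the methyltransferase to work. It had a pooled signal of 162 at 81 bp downstream of the start site (chr3L:19923123-19923638), and its 2 replicates were close, at 81.0 in replicate 1 and 78.9 in replicate 2. The PhoRC gene phol encodes a DNA-binding zinc-finger protein like Pho. Its pooled signal was 142 at 143 bp downstream (chr3L:9455880-9456395). It was in the list of replicate 1, at 57.7. In replicate 2 a candidate region of 70.1 lay there with an IDR of 0.760, so it was left off the list even though Nurf-38 was listed in the same replicate at 45.9. Membership of a list and height of signal are therefore not the same thing in these data. Sfmbt, the other PhoRC subunit, had the weakest Polycomb peak, 73.9 at 199 bp upstream (chr2L:13176323-13176838), in the list of replicate 1 only at 53.5. Asx, the partner of the deubiquitylase Calypso, had 151 at 124 bp downstream (chr2R:14503824-14504339), with 94.0 in replicate 1 and 65.8 in replicate 2.

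Among the Trithorax genes, kis (kismet), which encodes a CHD-family remodeler, had the strongest listed peak of all 39 genes. Its pooled signal was 407 at 112 bp upstream (chr2L:250791-251108), rank 132 in the list, with 255 in replicate 1 and 155 in replicate 2. A second listed peak of 135 lay 299 bp upstream of an internal start site of kis. Utx encodes the demethylase that removes the mark set by PRC2. It had 3 listed peaks near its start sites, the strongest of 197 at 39 bp upstream (chr2L:10277516-10277704), with 132 in replicate 1 and 82.4 in replicate 2. The methyltransferase gene trr had 148 at 177 bp upstream (chrX:1889869-1890384), in the list of replicate 1 only at 94.0. ash2, a shared subunit of all COMPASS complexes, had 81.7 at 72 bp upstream, and it was the only gene of the 22 found in the list of replicate 2, at 54.2, but not in that of replicate 1.

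The BAP genes spanned the range from strong to weak. Bap60 had a signal of 360 at 179 bp upstream (chrX:13159507-13159841), with 196 in replicate 1 and 154 in replicate 2. The actin-related subunit gene Bap55 followed with 238 at 86 bp upstream (chr2R:17430929-17431072), with 154 in replicate 1 and 82.6 in replicate 2. polybromo, whose protein defines the PBAP form of the complex, had 235, centred 1 bp inside the transcript. Bap170, also of PBAP, had 120.7 at 2 bp inside. The ATPase gene brm (brahma), with 51.8, and the core subunit gene Snr1, with 60.6, had the weakest peaks of the 22, and neither peak was in the list of either replicate. Leaving these 2 out, chosen after seeing the data, gives 20 genes with a peak supported by at least 1 replicate's own list.

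Each of the listed ISWI genes had a peak. Of the related genes described below, Acf, Chrac-16 and tou, of other ISWI remodelers, had a peak and Chrac-14 had none. The peak of Chrac-16 was in both replicates' lists and that of tou in neither. That of Acf was in the list of replicate 2 only, and the start site of Mccc1 was nearer to it. Iswi, the ATPase shared by several remodelers, had 302 at 5 bp upstream (chr2R:12636491-12636797), with 159 in replicate 1 and 138 in replicate 2. Caf1-55, a histone-binding WD40 protein that is a subunit of NURF and of PRC2 alike, had 163 at 90 bp upstream (chr3R:15225228-15225743), with 93.6 in replicate 1 and 64.7 in replicate 2. The 2 other NURF genes were weaker. Nurf-38, the pyrophosphatase subunit, had 126, with 104 in replicate 1 and 45.9 in replicate 2. E(bx), the largest NURF subunit, had 111 and was in the list of replicate 1 only, at 51.6.

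**Figure D2:**
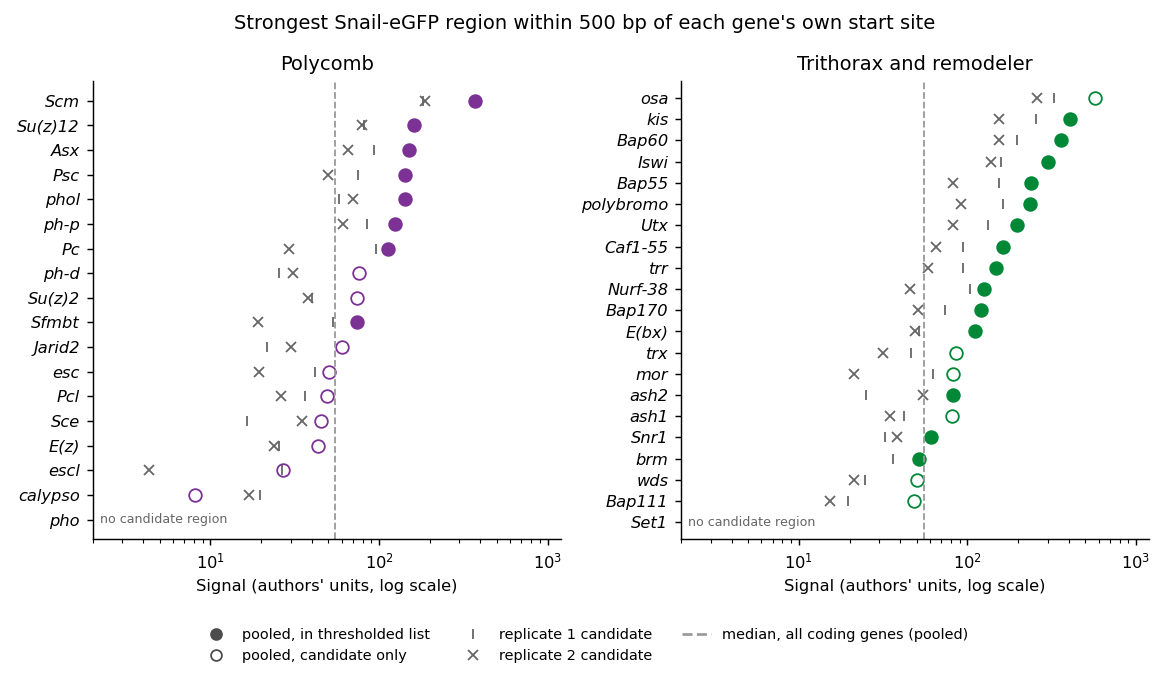
Strongest region within 500 bp of each gene's own start site, by signal in the authors' units (log axis), for Polycomb genes on the left and Trithorax and remodeler genes on the right. Filled circles are pooled thresholded peaks, open circles are pooled candidate regions outside that list, ticks and crosses are the candidates of replicates 1 and 2, and the dashed line is the median of all coding genes with a candidate. The open circle of osa at 572 lies above every filled one.

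In strength the peaks of these genes were close to those of other start sites. The median signal of the strongest own peak was 145 over the 22 genes, at a median percentile of 67.4 in the pooled list. Over all 3831 coding genes with a peak the median was 139 and the percentile 65.7. Within the set, Polycomb genes had a median signal of 142 at percentile 66.4, and Trithorax and remodeler genes one of 156 at percentile 70.4. Of the 22 genes, 4 stood at or above percentile 90 of the list by signal (Scm, kis, Bap60 and Iswi) and 3 below percentile 25 (Sfmbt, brm and Snr1). Peaks of 15 genes had the common width of 516 bp. The 7 strongest were narrower, at 144 to 335 bp.

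The replicates' own lists held fewer of these peaks. In the list of replicate 1, 20 of the 39 genes had a peak (51.3%), 8 Polycomb and 12 Trithorax and remodeler genes, against 21.7% of all coding genes. In that of replicate 2, 13 did (33.3%), 4 Polycomb and 9 Trithorax and remodeler genes, against 16.8% of all coding genes. Of the 22 pooled peaks, 12 (54.5%) overlapped a peak in both lists, 7 in that of replicate 1 only, 1 in that of replicate 2 only and 2 in neither. The share in both lists was 53.0% over all coding genes with a peak, so the 22 repeated about as often as other start site peaks. Both replicates held 4 of 8 Polycomb peaks and 8 of 14 Trithorax and remodeler peaks, a difference of −7.14 points with an interval of −42.8 to 30.5.

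Candidate regions, which carry no threshold, give both replicates a value at almost every gene. A candidate lay at the start site of 36 of the 39 genes in both replicates. The strongest was taken in each replicate apart, so the 2 values of a gene can come from different regions, as at Su(z)2 and esc. The signal was higher in replicate 1 for 29 of the 36 genes. Over coding genes it was likewise higher in replicate 1 for 5878 of 8183. The 2 replicates ranked the genes alike, with a Spearman rho of 0.80 over these 36 genes, 0.57 over 17 Polycomb genes and 0.89 over 19 Trithorax and remodeler genes, and it was 0.82 over 8183 coding genes. These are descriptions across genes of the same 2 libraries. In the ranking of all coding genes by their strongest candidate, the median of the 39 stood at percentile 75.5 in the pooled list, 77.2 in replicate 1 and 73.9 in replicate 2. Trithorax and remodeler genes stood above Polycomb genes each time. Polycomb genes had medians of 71.3 pooled, 69.4 in replicate 1 and 66.1 in replicate 2, and Trithorax and remodeler genes had 83.4 pooled, 84.0 in replicate 1 and 81.9 in replicate 2.

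**Figure D3:**
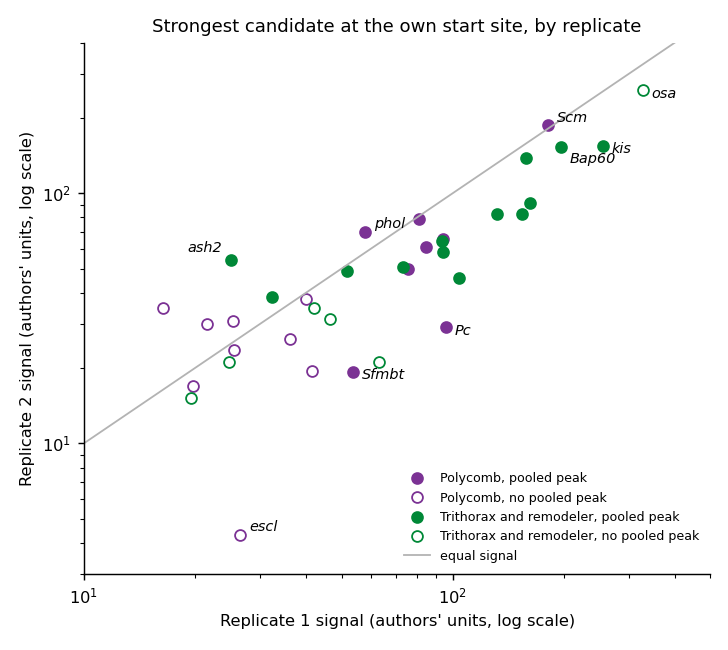
Signal of the strongest candidate region at the own start site in replicate 1 (x) and replicate 2 (y), in the authors' units on log axes, for the 36 genes with a candidate in both. Purple points are Polycomb and green points Trithorax and remodeler genes, filled where the pooled list has a peak. Below the line of equal signal lie 29 of 36 points, and over all coding genes 5878 of 8183 would.

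Of the 17 genes without an own peak, 10 were Polycomb genes. Candidate regions outside the thresholded list lay at 9 of these, with pooled signals of 8.10 to 76.1. None lay within 500 bp of the start site of pho, which is on chromosome 4 and encodes the DNA-binding subunit of PhoRC. In PRC1, ph-d (polyhomeotic distal) had 76.1, Su(z)2 had 74.0 and the ubiquitin ligase gene Sce had 45.5. The signals of ph-d and Su(z)2 were above that of the listed peak of Sfmbt (73.9). They stood at percentiles 72.2 and 71.3 of coding genes, and their IDRs of 0.0189 and 0.0115 were above the limit of 0.01. For ph-d the replicates gave 25.4 in replicate 1 and 30.8 in replicate 2. ph-p and ph-d are tandem near-copies. Recurring stretches of 36 bases were sought in 1 window per gene, around a start site. Of those of ph-d, 7.35% recur elsewhere in the genome, against 0% for each of the other 38 genes, so the values of ph-d are uncertain. Where the other copies lie is not given here. No such stretch was found in the window of ph-p, and further start sites of a gene had no window of their own. The 5 PRC2 genes without a peak had candidates of 26.8 to 60.7. The methyltransferase gene E(z) had 43.2, its partner esc had 50.4 and the esc paralogue escl had 26.8. Of the accessory genes, Pcl had 49.1 and Jarid2 had 60.7. The deubiquitylase gene calypso had 8.10, the weakest of all in the pooled list. Its replicates gave 19.8 in replicate 1 and 16.9 in replicate 2, at regions that do not overlap the pooled one. Lower values stood at Sce in replicate 1 (16.4) and at escl in replicate 2 (4.31).

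The 7 Trithorax and remodeler genes without an own peak fell into a wide range. Set1, the gene of the main COMPASS methyltransferase, had no candidate in either replicate or in the pooled list. The namesake gene trx had 85.6, ash1, a histone methyltransferase gene, had 80.8, wds, a WD40 subunit of COMPASS, had 50.3, and the BAP subunit gene Bap111 had 48.5. For trx the replicates gave 46.5 in replicate 1 and 31.4 in replicate 2, and for ash1 they gave 42.0 in replicate 1 and 34.7 in replicate 2. The regions of both reached the IDR limit in replicate 1 alone, where that of ash1 was in the list and that of trx was not. moira (mor), a core BAP subunit gene, had 82.5, with 62.9 in replicate 1, where it reached the IDR limit, and 21.2 in replicate 2.

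The gene osa, whose product defines the BAP form of the Brahma complex, was the exception. Its candidate region at chr3R:17718238-17718668, with the summit 63 bp upstream of the start site, had a signal of 572, above every listed peak of the 39 genes. It was 327 in replicate 1 and 258 in replicate 2, the highest value of any of the 39 genes in each. The IDR was 1e-05 in the pooled list and in both replicates, yet the thresholded lists do not hold the region. In all, 139 of the 4360 pooled candidates at an IDR of 0.01 or less were outside the pooled thresholded list, 80 of them on 3R. The same was true of 92 of 2968 in replicate 1 and 86 of 2311 in replicate 2. A reason for their absence was not given in the sources used here. Besides osa, mor was touched in the pooled list, at an IDR of 0.0188 for its strongest region but with another region within the limit, and trx and mor were touched in replicate 1.

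Summits of the 22 genes lay close to the start site on either side of it. The median position was 22 bp upstream, and 15 of 22 summits were within 150 bp (68.2%, against 72.4% of all coding genes with a peak). Upstream lay 12 of 22 (54.5%), against 75.3% over all coding genes with a peak. Of Polycomb genes 3 of 8 had an upstream summit, with a median 102.5 bp downstream, and of Trithorax and remodeler genes 9 of 14, with a median 55.5 bp upstream. The threshold of 500 bp mattered little. The summits just inside it were those of ph-p at 480 bp, kis at 299 bp and Utx at 253 bp, and the nearest outside were one of Asx at 572 bp and 2 of kis at 1550 and 2524 bp.

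**Figure D4:**
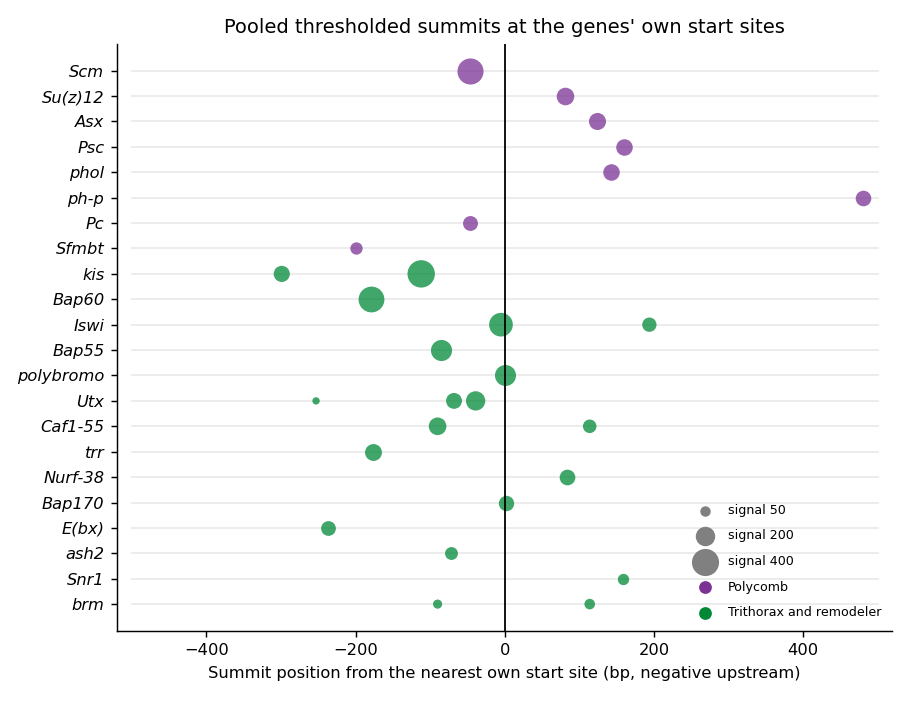
Position of each of the 28 listed summits relative to the nearest own start site (bp, negative upstream) for the 22 genes with a peak, Polycomb genes (purple) above Trithorax and remodeler genes (green). The area of a point grows with its pooled signal, and that of ph-p at 480 bp is the farthest from a start site.

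Many of these start sites are shared with a neighbour. For 12 of the 22 genes another coding gene starts within 500 bp of the summit, on the opposite strand in all 12, and over all coding genes with a peak the share was also 54.5%. Such a neighbour was found for 3 of 8 Polycomb genes and 9 of 14 Trithorax and remodeler genes. For 5 genes the neighbour's start site was the nearer one: CG43925 at Sfmbt, mRpL16 at trr, puf at ash2, Lhr at Bap55 and CG12096 at Bap60. These 5 make 22.7% of the 22, against 26.6% over all coding genes with a peak. Whether these 5 peaks belong to the named gene or to its neighbour cannot be told apart. Giving each summit to the nearest start site only leaves 17 genes, 7 Polycomb and 10 Trithorax and remodeler, and moves their difference to −8.73 points (−36.0 to 20.9). Of all 13945 coding genes, 2811 had a strongest own peak to which no neighbour's start site was closer, as did 17 of the 39.

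Peaks farther away added few genes. Within 5000 bp of the gene, 27 of 39 genes had a peak (69.2%), against 52.7% of all coding genes. Without the flanks 16 did, a count that also leaves out own peaks with a summit just upstream of the gene. No share over all coding genes was computed for that count. With the flanks, 10 of 18 Polycomb genes (55.6%) and 17 of 21 Trithorax and remodeler genes (81.0%) had a peak. The difference was −25.4 points with an interval of −50.0 to 3.49. Genes differ in length, which this count depends on: the median was 5293 bp for the 39 genes and 2166 bp for all coding genes. The 35 peaks counted apart, 9 of Polycomb and 26 of Trithorax and remodeler genes, lay mostly in the flanks. Only 5 were inside a gene, 3 in kis and 2 in osa, and only 4 were nearer to the named gene's start site than to that of another coding gene, 3 of them of kis and 1 of Psc. The strongest, of 393 near Iswi, was 68 bp from the start site of muskelin. Su(z)2, Sce, wds, osa and mor had such a peak and no own peak, and 12 genes (8 Polycomb, 4 Trithorax and remodeler) had neither.

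In CGATA the peaks were like other start site peaks, while the shares of the other motifs differed more and rest on few windows. Within 100 bp of the summit, on either strand, 15 of the 22 peaks held CGATA (68.2%, 47.3 to 83.6), 4 of 8 at Polycomb and 11 of 14 at Trithorax and remodeler genes. Over all coding genes' own peaks the share was 67.5%. CAGGTG, the core of the Snail site, was in 0 of 22 windows, which leaves a share of up to 14.9% within the interval, and in 5.85% of all such windows. CAGGTA, the Zelda core, was in those of Psc and Scm (9.09%, against 4.33%). TATCGATA, the DNA replication-related element, which contains CGATA, was in 3 windows (13.6%, against 24.3%), GAGAG of the GAGA factor in 3 (13.6%, against 23.3%), the E-box CAGCTG in 1 (4.55%, against 18.8%) and TATAAA in 2 (9.09%, against 24.3%). GCCAT, the core of the Pho site, was in 9 (40.9%, against 29.8%), 1 at a Polycomb gene and 8 at Trithorax and remodeler genes. GGTCACAC, the core promoter motif 1, was in 0 windows, against 6.71%. A match is a stretch of letters and not a measured site.

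Around the start sites themselves the genes with and without a peak could be compared in windows of the same 201 bp. CGATA was at 17 of 22 start sites with a peak (77.3%) and 6 of 17 without (35.3%), and over coding genes it was at 66.1% of start sites with a peak and 29.3% of those without. CAGGTG was at 0 of 22 start sites with a peak and 1 of 17 without, that of esc. Over coding genes CAGGTG was at 5.56% of start sites with a peak and 6.95% of those without. GGTCACAC, the core promoter motif 1, was at 0 of 22 start sites with a peak and 6 of 17 without (35.3%), those of Sce, esc, Pcl, trx, wds and ash1. Over coding genes it was at 9.76% of start sites with a peak and 5.62% of those without, which is the other direction. This contrast was noticed in the data and was not tested. The copies at Sce, esc, trx, wds and ash1 are shown in 30 bases each, on the strand of the gene, with the motif in capitals, and that of Pcl is not printed. The stretches are at chr3R:27681988-27682017 on the minus strand (Sce), chr2L:11829359-11829388 on the minus strand (esc), chr3R:14286937-14286966 and chr3R:14286868-14286897 on the minus strand (trx), chrX:2585974-2586003 on the plus strand (wds) and chr3L:19598778-19598807 on the minus strand (ash1), on dm6.
Sce: aaccaaagtgcGGTCACACttcaagctaat
esc: tccgtgactggGGTCACACcattgccgcca
trx, first copy: ctaaaatatcgGTGTGACCaggtctgcaca
trx, next copy: gttatcggcgcGGTCACACtgtccggtcgt
wds: tttagttattaGTGTGACCttaagcattat
ash1: ttccgccgcaaGGTCACACtgtcgcgtaga

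**Figure D5:**
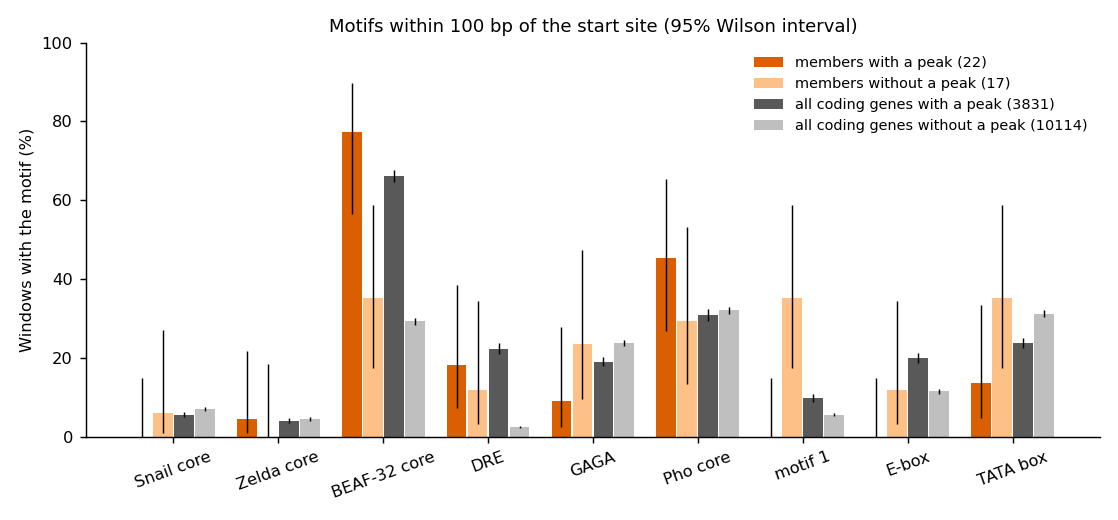
Share of windows of 201 bp around the start site that hold each motif (%), for the genes of the set with a peak (22) and without (17) and for all coding genes with and without one. Lines are 95% Wilson intervals; the core of BEAF-32 (CGATA) stands at 77.3% in the set's genes with a peak and 35.3% in those without, and motif 1 (GGTCACAC) at 0 and 35.3%.

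A wider list of 52 related chromatin genes, none of them among the 39, gave a like share. Of these, 28 had an own peak (53.8%, 40.5 to 66.7) and 41 a peak within 5000 bp, with a median signal of 154 for the own peaks. The strongest was that of XNP, the fly ATRX remodeler, at 530. BCL7-like, of the Brahma complex, had 343, MTA1-like, of the NuRD complex, had 325 and lolal, a BTB-domain partner of GAGA factor, had 324. For XNP and BCL7-like a neighbour's start site was nearer to the summit, CG42488 and CG5116 at XNP and Zdhhc8 at BCL7-like, so the owner of these peaks cannot be told apart either. Both lists were chosen with results of these data known, so neither stands as independent support of the other.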

How the data were processed

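Chromatin precipitated with an antibody against GFP from sna-eGFP embryos was sequenced in 2 biological replicates, and only peak lists were used. The authors deposited, for the pooled replicates and for each replicate, a list of candidate regions and a list thresholded by IDR, on dm6, per the files' own notes and the labels. Names of the aligner and peak caller were not given in the sources used here. Of the columns, signal is the authors' own deposited value, used as given, and the deposited q value and IDR columns are −log10 values. The p-value column was not used for any test.

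Start sites were those of Ensembl release 115 and sequence was the NCBI copy of Release 6. Python 3.11.15 with numpy 2.4.6, pandas 2.3.3 and scipy 1.17.1 counted summits, and the functions were tested on simulated data. Of the pooled list 1 peak off the 6 arms was left out. Shares have 95% Wilson intervals and differences Newcombe intervals. Depth is unknown, so precision rests on 2 replicates. The members and lists were chosen with earlier results of these data known. The text names all 39 genes, with positions and replicate values for the 2 strongest listed peaks of each complex, or for 1 where only 1 gene had a listed peak. Sequences were to be the 4 strongest summits of each group off 2R, limited to windows with at most 30 transcribed untranslated bases, which left 3 Polycomb windows. The 9 motifs were sought within 100 bp, on both strands.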

Additional observations from a re-analysis of the deposited data

How the results depend on the processing

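Of 56 values recomputed under other settings, 47 stayed within the limits set for them and 9 moved beyond them. Only the difference between Polycomb and Trithorax and remodeler genes could change direction, and it did so in 0 settings. Its limit was wide, the main interval of −47.8 to 8.28 points. The counts of genes with an own peak ranged, leaving out each replicate in turn, over 13 to 20 for all members, 4 to 8 for Polycomb and 9 to 12 for Trithorax and remodeler genes, and the lower counts were those without replicate 1. The list called from the replicate pair gave 17 genes, and distances of 250 and 1000 bp gave 21 and 22. Without any extension of the gene span, 16 genes had a peak in place of 27, since the flanks are then left out, with the own peaks just upstream of a gene. The median percentile of 67.4 was 68.7 in the replicate-pair list, 68.3 when ranked by q value, and 60.1 and 59.2 in the single lists of replicates 2 and 1. It was 68.9 without brm and Snr1, a setting chosen after seeing the data. The spread between the replicates was only 0.651, so small shifts count as moved. The interval of the difference between Polycomb and Trithorax and remodeler genes held 0 in every planned setting and excluded it only with the unlisted candidates at an IDR of 0.01 (−31.7 points). Counting Caf1-55 with the Polycomb genes gave 9 and 13 genes. CGATA was in 12 of 22 windows at 50 bp and 20 at 250 bp from the summit. CAGGTG was in 0 at both. No paired analysis was possible because the design has 1 group.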
